A study of Mus musculus with 12 samples.

Results

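The 34 genes described here encode the enzymes of glycolysis, the carriers of glucose and lactate, the switches that set the flow of pyruvate and fructose phosphates, the oxygen-sensing machinery and a few genes that low oxygen induces. They were listed by symbol and not picked by a cut on their measured response, but earlier results of these data were known when they were chosen. They were followed in all 12 RNA-seq libraries of mouse embryonic fibroblasts (MEFs) that carry a doxycycline-inducible cassette of Oct4, Sox2, Klf4 and Myc (OSKM), the factors that turn fibroblasts into induced pluripotent stem cells. The 34 symbols correspond to 35 of the 55573 genes in the table, because the symbol Aldoa is carried by a second gene, ENSMUSG00000114515, which had 5 to 22 counts per library. The hypoxia target Ankrd37 had 3 to 16 counts per library and did not pass the filter on low counts, so that 34 of the 35 genes were among the 19174 tested.

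The cells came from C57BL/6 embryos at E13.5, and each of the 3 clones is the MEF culture of 1 embryo. All cells carried the cassette and were kept for 72 h in medium for induced pluripotent stem cells. In the group MEF the cassette was left uninduced, and in the group OSKM it was induced with 1 µg/ml doxycycline, so that the drug and the factors cannot be told apart. MEF+B12 and OSKM+B12 received 2 µM vitamin B12 in addition. Each clone gave 1 library to each of the 4 groups, so that n = 3 in every group. The library titles give clone 1 a later year than clones 2 and 3.

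Glycolysis splits glucose into pyruvate. Lactate dehydrogenase then turns pyruvate into lactate, or the pyruvate dehydrogenase complex of the mitochondrion turns it into acetyl-CoA, and the pyruvate dehydrogenase kinases (Pdk) close the second route. Under low oxygen the factor HIF-1, whose oxygen-regulated subunit is encoded by Hif1a, raises most genes of this set together, and cells on the way to pluripotency are known to lean towards glycolysis.

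Library totals ranged from 56971244 to 79236795 counted read pairs. The summed level of 12 fibroblast markers was 97440 to 154500 CPM (counts scaled to a common library total by the TMM method), 10.1% to 14.4% of all counts. Induction was unequal between clones. The summed level of 8 pluripotency genes, cassette transcripts included, reached 32.3 to 37.2 CPM after induction in clones 1 and 2 but 4.87 and 5.51 CPM in clone 3, and stayed at or under 1.51 CPM where the cassette was off. The OSKM library of clone 1 stood apart in Gapdh and its pseudogenes, as described below. In such bulk samples fewer cells of a type and less RNA per cell cannot be told apart. All comparisons below draw on the same 12 libraries, and those within one state or one B12 condition share groups.

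The module as a whole was abundant and moved little. Its 35 genes together made up 0.373% to 0.438% of the counts of a library. Their summed level was 3964 ± 35.9 CPM in MEF, 4279 ± 90.3 CPM in MEF+B12, 3926 ± 118 CPM in OSKM and 4051 ± 118 CPM in OSKM+B12 (mean ± SD, n = 3). Per kilobase of exon, the highest mean levels over the 12 libraries were those of Pkm at 158, Aldoa at 126, Pgam1 at 121, Ldha at 94.1 and Pgk1 at 86.5 CPM per kilobase. The regulatory genes were far lower than these, with Pdk3 at 12.9, Pdk2 at 5.21, Pfkfb3, which makes the activator of phosphofructokinase, at 2.80 and Pdk1 at 2.79 CPM per kilobase. Several enzyme genes were in the same low range, such as Pfkm at 10.4, Hk1 at 8.65, Hk2 at 3.67 and Pfkp at 1.59 CPM per kilobase. Hif1a itself stood at 65.9 CPM per kilobase, near the enzymes Tpi1 at 65.6 and Eno1 at 62.6, and the hypoxia-induced genes spanned a wide range. P4ha1, a collagen prolyl hydroxylase, was at 34.3, Ndrg1 at 6.89, the mitophagy receptor Bnip3 at 5.95, the carbonic anhydrase Car9 at 0.449 and the prolyl hydroxylase Egln3 at 0.297 CPM per kilobase.

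With vitamin B12, Pdk1, Pgk1 and Pkm rose and Ldhb fell. Averaged over uninduced and induced cells, 3 of the 34 tested members rose and 1 fell at an adjusted p under 0.05 in the quasi-likelihood test of edgeR, against 3.84% of all genes tested in either direction, 3.46% higher and 0.381% lower. The median log2 difference of the members was 0.046, against -0.013 over all genes tested, and 24 of 34 members were positive. The differences were small. Pdk1, Pkm and Pgk1 were 17.9%, 15.8% and 14.9% higher with B12, and Ldhb fell by 14.4%.

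**Figure D1:**
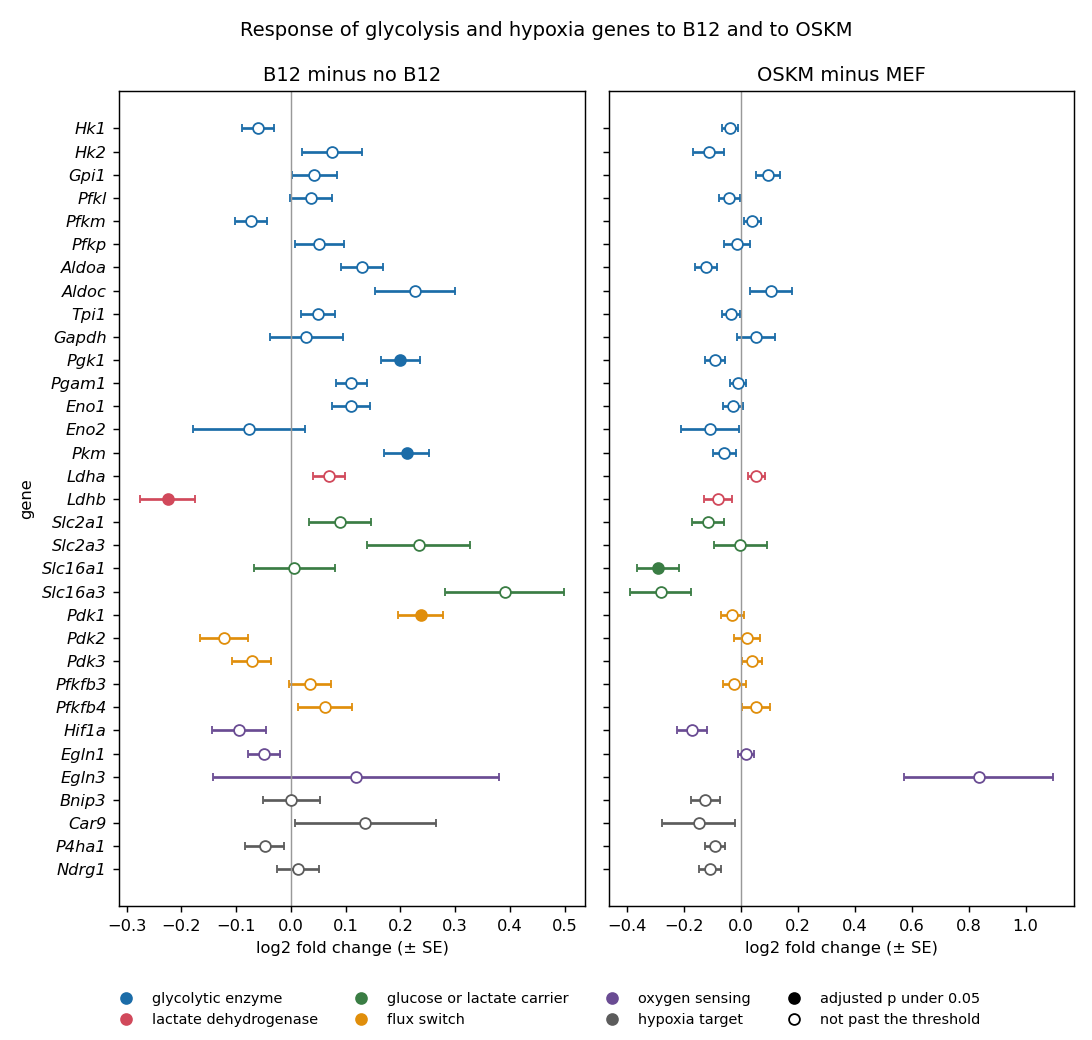
Log2 fold change (± SE, from the edgeR fit to 12 libraries) of 33 of the 34 tested members, ordered by role, for B12 minus no B12 averaged over state (left) and OSKM minus MEF averaged over B12 (right). Filled points have an adjusted p under 0.05: Pgk1, Pkm, Ldhb and Pdk1 on the left, and Slc16a1 on the right. The 2 panels have different scales, and ENSMUSG00000114515 is not drawn.

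Pdk1 encodes the pyruvate dehydrogenase kinase that HIF-1 is best known to induce and lies at chromosome 2, 71873224 to 71903858, on the plus strand (GRCm38). Its level was 22.0, 19.8 and 18.8 CPM in MEF (clones 1 to 3 in this order) and 25.3, 22.4 and 23.1 CPM in MEF+B12. It was 20.5, 19.9 and 18.4 CPM in OSKM against 23.0, 24.0 and 22.8 CPM in OSKM+B12. All 6 pairs of libraries from the same clone and state were higher with B12, as in 7.99% of all genes tested. The highest level without B12, 22.0 CPM, came close to the lowest with it, 22.4 CPM. The log2 difference of Pdk1 with OSKM was -0.03 ± 0.04. The log2 fold change with B12 was 0.24 ± 0.04 (SE, adjusted p = 0.00732), the smallest p among the members. Within OSKM the value was 0.25 ± 0.06 (adjusted p = 0.0851) and within MEF 0.23 ± 0.06 (adjusted p = 0.112).

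Pgk1 encodes phosphoglycerate kinase, the first enzyme of glycolysis to yield ATP, at chromosome X, 106187100 to 106203699, on the plus strand. It was at 194, 186 and 177 CPM in MEF (clones 1 to 3 in this order) and at 227, 219 and 200 CPM in MEF+B12. In induced cells it was at 174, 177 and 176 CPM without and at 204, 194 and 202 CPM with B12. All 6 pairs were again higher with B12. The highest level without B12, 193.9 CPM, came close to the lowest with it, 194.1 CPM. The log2 fold change was 0.20 ± 0.04 (adjusted p = 0.00865).

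Pkm encodes the pyruvate kinase that makes pyruvate, at chromosome 9, 59656368 to 59679375, on the plus strand, and its splice forms were counted together. It was at 812, 712 and 694 CPM in MEF (clones 1 to 3 in this order) and at 964, 871 and 804 CPM in MEF+B12. It was at 769, 707 and 710 CPM in OSKM against 813, 829 and 816 CPM in OSKM+B12. The ranges of the libraries with and without B12 overlapped, because clone 1 was high in MEF, while every clone was higher with B12 in both states. The log2 fold change was 0.21 ± 0.04 (adjusted p = 0.0152).

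Ldhb moved the other way. It encodes the lactate dehydrogenase subunit of oxidative tissues, at chromosome 6, 142490249 to 142507957, on the minus strand. Its level was 19.7, 20.7 and 23.5 CPM in MEF (clones 1 to 3 in this order) and 17.8, 15.9 and 22.8 CPM in MEF+B12. It was 18.9, 18.1 and 25.5 CPM in OSKM against 14.9, 15.7 and 21.6 CPM in OSKM+B12. Clone 3 was highest in every group, so that the ranges overlapped, but each of the 6 pairs of libraries from the same clone and state was lower with B12. The log2 fold change was -0.22 ± 0.05 (adjusted p = 0.033).

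**Figure D2:**
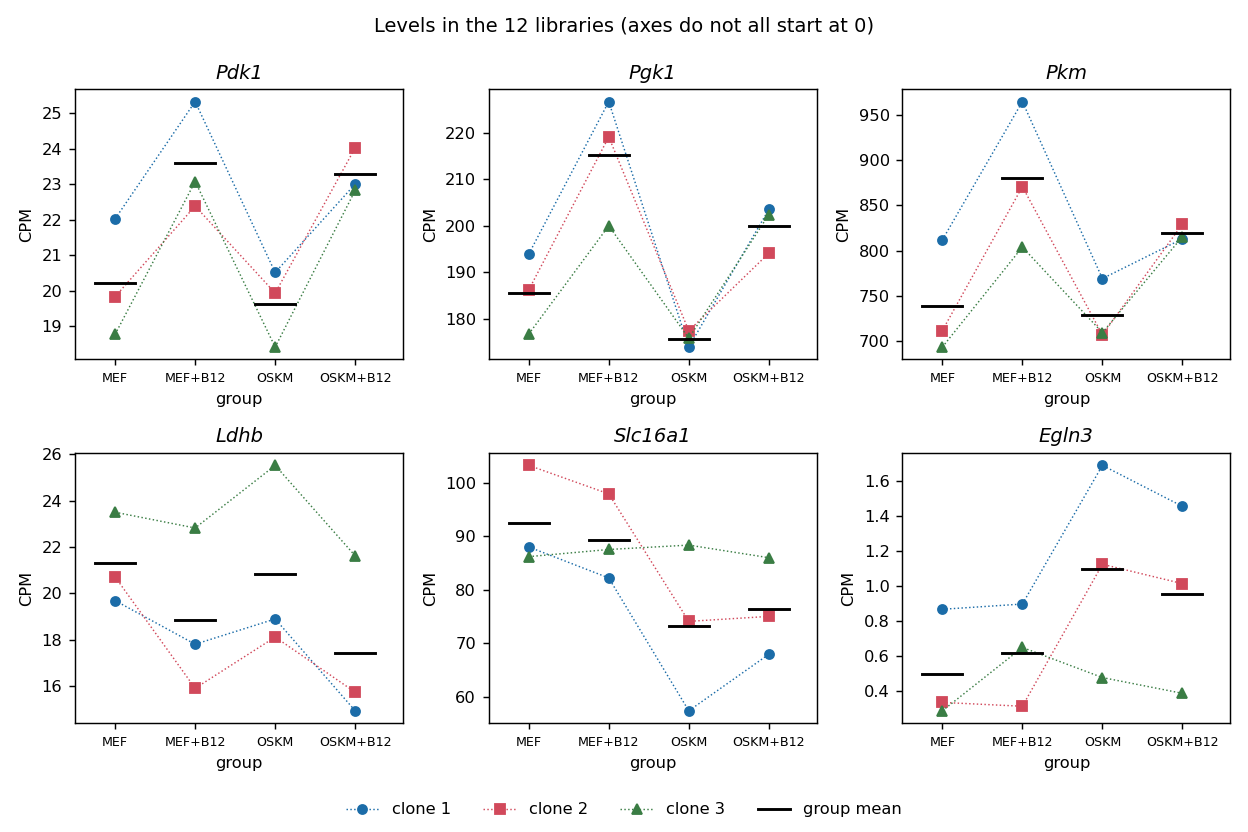
Levels in CPM of the 4 members called with B12, of Slc16a1, called with OSKM, and of Egln3 in the 12 libraries. Points are single libraries, marked by clone and joined by dotted lines only to show which belong to the same clone, and bars are means of n = 3. Pdk1 and Pgk1 were higher in both B12 groups than in the groups without it, and Slc16a1 was low after induction in clones 1 and 2 but not in clone 3.

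Several calls changed when 1 clone or the pairing by clone was left out. Without clone 2, which leaves 8 libraries, 0 of these 4 genes were called (adjusted p of 0.153 for Pdk1, 0.210 for Pgk1, 0.381 for Pkm and 0.325 for Ldhb). In that setting 34 of 19314 genes tested were called, against 736 of 19174 with all 12 libraries. Without clone 1 the call of Pgk1 (0.0775) and of Ldhb (0.177) was lost, without clone 3 that of Pdk1 (0.139), Pkm (0.0731) and Ldhb (0.0967), and without the OSKM library of clone 1 alone that of Ldhb (0.0553). Over all genes tested, 525 of 19102 were called without clone 1, 317 of 19231 without clone 3 and 785 of 19499 without that library. The log2 fold changes without 1 clone ranged from 0.22 to 0.27 for Pdk1 and from 0.19 to 0.22 for Pgk1. Without the clone term in the fit, the adjusted p was 0.108 for Pdk1, 0.0842 for Pgk1, 0.229 for Pkm and 0.931 for Ldhb. That fit called 90 of 19174 genes tested.

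Markers of macrophages, which such cultures can hold, moved with B12 as well. Of 11 macrophage markers, 10 rose with B12 averaged over state, where 3.46% of all genes tested were higher. The remaining marker had a negative difference that did not pass the threshold. The summed level of the 11 was 1218 to 2351 CPM in MEF, 1848 to 3125 CPM in MEF+B12, 1236 to 2163 CPM in OSKM and 1897 to 2508 CPM in OSKM+B12. None of the 11 was at 0 in all libraries. The part of these cells in the differences of Pdk1, Pgk1, Pkm and Ldhb was not tested. The summed level of 10 proliferation genes was 589 ± 64.2 CPM in MEF, 614 ± 87.6 CPM in MEF+B12, 601 ± 108 CPM in OSKM and 635 ± 74.1 CPM in OSKM+B12, and 2 of them, Pcna and Mcm5, rose with B12.

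The promoters of the 5 members called in any comparison are shown because several of these genes are known targets of HIF-1, which binds the core of the hypoxia response element. RefSeq windows of 300 bases around the start of transcription (build GRCm38.p6) were found for 32 of the 34 symbols, with Slc2a3 and Ndrg1 not matched. The cores searched were ACGTG and GCGTG on either strand (read as CACGT and CACGC on the other one), and CACGTG holds ACGTG once on each strand and counts as 2. Capitals mark the matches, and where a gene has several starts the one farthest upstream is printed. The windows are chr2:71872974-71873273 (+ strand) for Pdk1, chr9:59656326-59656625 (+ strand) for Pkm, chrX:106186850-106187149 (+ strand) for Pgk1, chr6:142507908-142508207 (- strand) for Ldhb and chr3:104638414-104638713 (+ strand) for Slc16a1.
Pdk1: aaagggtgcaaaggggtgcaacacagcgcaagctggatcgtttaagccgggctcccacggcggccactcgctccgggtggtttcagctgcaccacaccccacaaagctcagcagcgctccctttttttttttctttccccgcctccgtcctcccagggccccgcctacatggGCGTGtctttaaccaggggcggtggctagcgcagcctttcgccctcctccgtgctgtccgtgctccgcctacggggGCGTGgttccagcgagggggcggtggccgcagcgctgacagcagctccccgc
Pgk1: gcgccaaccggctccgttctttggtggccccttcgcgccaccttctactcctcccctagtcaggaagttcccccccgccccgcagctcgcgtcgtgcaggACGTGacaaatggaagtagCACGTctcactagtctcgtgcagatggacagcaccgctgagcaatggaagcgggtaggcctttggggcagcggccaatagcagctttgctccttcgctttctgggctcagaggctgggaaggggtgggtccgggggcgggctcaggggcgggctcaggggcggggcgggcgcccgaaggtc
Pkm: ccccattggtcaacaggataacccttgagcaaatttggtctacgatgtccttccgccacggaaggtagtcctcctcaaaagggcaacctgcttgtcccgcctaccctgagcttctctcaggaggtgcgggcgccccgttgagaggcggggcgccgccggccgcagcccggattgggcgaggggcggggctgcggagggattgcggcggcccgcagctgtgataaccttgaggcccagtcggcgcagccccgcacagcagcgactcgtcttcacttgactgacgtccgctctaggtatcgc
Ldhb: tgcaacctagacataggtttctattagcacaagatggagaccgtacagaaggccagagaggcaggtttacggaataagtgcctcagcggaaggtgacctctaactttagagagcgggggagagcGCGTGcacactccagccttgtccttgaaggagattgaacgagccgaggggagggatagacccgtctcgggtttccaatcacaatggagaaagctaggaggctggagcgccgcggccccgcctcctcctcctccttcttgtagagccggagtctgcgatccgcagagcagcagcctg
Slc16a1: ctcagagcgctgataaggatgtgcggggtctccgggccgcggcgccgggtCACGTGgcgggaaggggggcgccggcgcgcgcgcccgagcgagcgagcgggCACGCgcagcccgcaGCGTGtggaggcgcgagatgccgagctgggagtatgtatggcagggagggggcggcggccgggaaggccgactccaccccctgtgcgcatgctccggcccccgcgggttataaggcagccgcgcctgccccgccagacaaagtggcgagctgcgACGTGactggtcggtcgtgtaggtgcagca
The Pdk1 and Pgk1 windows held 2 matches each, Ldhb, which fell, held 1, and Slc16a1, the carrier called with OSKM, held 5. The Pkm window held 0, while the window of its second start held 2. At the start farthest upstream, 26 of 32 members (81.2%) had a match, against 60.5% of the 12110 tested genes and 43.8% of all 27025 genes with a window. A match is only a run of letters, and members with a match at that start include genes called higher, called lower and not called.

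Pgk1 and Pkm were the 2 enzyme genes called with B12. Of the enzyme genes that did not pass the threshold, Pgam1, phosphoglycerate mutase, had 0.11 ± 0.03 (adjusted p = 0.0572), Aldoa, the main aldolase, had 0.13 ± 0.04 (adjusted p = 0.103) and Eno1, the main enolase, had 0.11 ± 0.03 (adjusted p = 0.14). Of the 16 enzyme genes, 12 had a positive difference and their median log2 difference was 0.051. The summed level of the 16 enzyme genes was 2741 ± 84.1 CPM in MEF (2673 to 2835) and 3064 ± 131 CPM in MEF+B12 (2919 to 3173). In OSKM the sum was 2762 ± 165 CPM (2658 to 2952) and in OSKM+B12 it was 2905 ± 27.4 CPM (2873 to 2921).

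None of the remaining enzyme genes was called with B12. Hk1 and Hk2, the hexokinases that trap glucose in the cell, had log2 differences with B12 of -0.06 ± 0.03 and 0.07 ± 0.05, and the 3 phosphofructokinase genes Pfkl, Pfkm and Pfkp had 0.04 ± 0.04, -0.07 ± 0.03 and 0.05 ± 0.04, with adjusted p from 0.276 to 0.690 in these 5 genes. Hk2 differed more between clones than between groups, at 12.1 to 15.3 CPM in clone 1 and 21.4 to 28.4 CPM in clones 2 and 3. Gpi1, which converts glucose phosphate to fructose phosphate, and Tpi1, which interconverts the triose phosphates, had 0.04 ± 0.04 and 0.05 ± 0.03. Eno2, the neuronal enolase, ranged from 14.0 to 26.9 CPM and had -0.08 ± 0.10.

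Among the carriers, Slc16a3 (MCT4), the lactate exporter of glycolytic cells, had the highest log2 difference with B12 of the 34 members, 0.39 ± 0.11 (adjusted p = 0.0848), at a mean of 3.38 CPM. It was at 4.43, 2.07 and 3.38 CPM in MEF (clones 1 to 3 in this order) and at 4.73, 3.63 and 4.10 CPM in MEF+B12. In induced cells it was at 2.61, 2.13 and 3.08 CPM without and at 4.10, 2.91 and 3.43 CPM with B12. Every clone was higher with B12 in both states, and the ranges overlapped. The glucose carriers Slc2a1 (GLUT1) and Slc2a3 (GLUT3) had 0.09 ± 0.06 and 0.23 ± 0.09, with adjusted p of 0.494 and 0.258. Slc16a1 (MCT1), the carrier that moves lactate in either direction, had 0.01 ± 0.07.

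No oxygen-sensing gene or hypoxia target was called with B12. Hif1a had -0.09 ± 0.05 (adjusted p = 0.408), Egln1, the main prolyl hydroxylase that marks HIF-1 for destruction, had -0.05 ± 0.03, and Egln3, which HIF-1 itself induces, had 0.12 ± 0.26. The targets Bnip3, P4ha1 and Ndrg1, with roles in mitophagy, collagen hydroxylation and stress, had 0.00 ± 0.05, -0.05 ± 0.03 and 0.01 ± 0.04, and Car9 had 0.14 ± 0.13. Adjusted p for these 7 genes ranged from 0.408 to 0.993.

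Counted by pairs of the same clone and state, 7 of the 34 tested members were higher with B12 in 6 of 6 pairs, against 7.99% of all genes tested. They were Pgk1, Pgam1, Pkm, Ldha, Slc2a3, Slc16a3 and Pdk1. In 6 members, Ldhb, Pdk2, Pdk3, Hif1a, Egln1 and P4ha1, all 6 pairs were lower with B12, against 7.66% of all genes tested. Pdk4, the kinase of the Pdk family outside the 34 symbols, was lower with B12 in 3 of 6 pairs.

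Within one state, 0 of 34 members passed the threshold by edgeR in either case. In MEF+B12 against MEF, edgeR called 1.38% of all genes tested. An unadjusted p under 0.05 was reached there by 10 of 34 members and by 1972 of 19174 genes tested. DESeq2 called 3 members there, Pgk1, Pkm and Aldoc, against 469 of 19174 genes tested. In OSKM+B12 against OSKM, edgeR called 1.06% of all genes tested. An unadjusted p under 0.05 was reached there by 7 of 34 members and by 1883 of 19174 genes tested. DESeq2 called 1 member there, Pdk1, against 388 of 19174 genes tested. In MEF the smallest p were those of Aldoc (0.46 ± 0.10, adjusted p = 0.065), Pkm (0.25 ± 0.06, adjusted p = 0.0726), Pgk1 (0.21 ± 0.05, adjusted p = 0.0755), Pdk1 and Aldoa (0.17 ± 0.05, adjusted p = 0.207). In OSKM they were those of Pdk1, Pgk1 (0.19 ± 0.05, adjusted p = 0.157), Ldhb (-0.26 ± 0.07, adjusted p = 0.168), Pkm (0.17 ± 0.06, adjusted p = 0.324) and Pdk2 (-0.17 ± 0.06, adjusted p = 0.373).

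Shares of related genes within one library do not depend on how libraries are scaled to each other. They were computed from counts per kilobase of exon, and with 3 clones no exact sign-flip test can go below p = 0.25, so that they are given without a test. Pdk1 made up 11.2% to 13.2% of the summed pyruvate dehydrogenase kinases Pdk1, Pdk2 and Pdk3 without B12 and 13.9% to 15.3% with it. The share was higher with B12 in 6 of 6 pairs, by 2.55 ± 0.433 percentage points (SD, n = 3 clones). Pdk3 was the most abundant of the 3, at 59.8% to 63.6%. Pdk4, at 5.18 to 11.4 CPM, is no member and was not part of the sum.

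The share of Ldhb among Ldha and Ldhb was lower with B12 in 6 of 6 pairs. The difference was -2.05 ± 0.341 percentage points. It was 12.4%, 12.7% and 14.2% in MEF (clones 1 to 3 in this order) and 10.7%, 9.52% and 13.4% in MEF+B12. It was 11.3%, 10.8% and 15.0% in OSKM against 8.91%, 9.19% and 12.4% in OSKM+B12. Ldha, the subunit that favours lactate, was thus the main one in all 12 libraries, at 292 to 328 CPM. With the mean length of coding transcripts in place of merged exons, the difference in the Ldhb share was -1.25 percentage points.

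Slc16a3 made up 1.64% to 4.79% of the lactate carriers Slc16a1 and Slc16a3 and was 0.802 ± 0.291 percentage points higher with B12, in 6 of 6 pairs. With the mean length of coding transcripts the difference was 2.02 percentage points. Hk2 made up 18.6% to 23.5% of the summed hexokinases Hk1 and Hk2 in clone 1 and 30.0% to 35.5% in clones 2 and 3, and was 1.78 ± 1.26 percentage points higher with B12, also in 6 of 6 pairs. The Hk2 difference was 0.798 percentage points with the mean length of coding transcripts and 1.06 without clone 1. Among the phosphofructokinases, the muscle form Pfkm was lower with B12 in 6 of 6 pairs, with a difference of -1.88 ± 0.875 percentage points, and the liver form Pfkl was 1.38 ± 1.06 percentage points higher, also in 6 of 6 pairs (0.839 percentage points without clone 1). The genes behind these shares, Slc16a1, Slc16a3, Hk1, Hk2, Pfkl, Pfkm and Pfkp, were not called with B12. Of the other shares computed within gene families, that of Slc2a3 was higher with B12 in 5 of 6 pairs and that of Pfkp in 4. Those of Aldoc and Eno2 were higher in 3 pairs, that of Egln3 in 2 and those of Pdk2 and Pdk3 in 1.

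**Figure D3:**
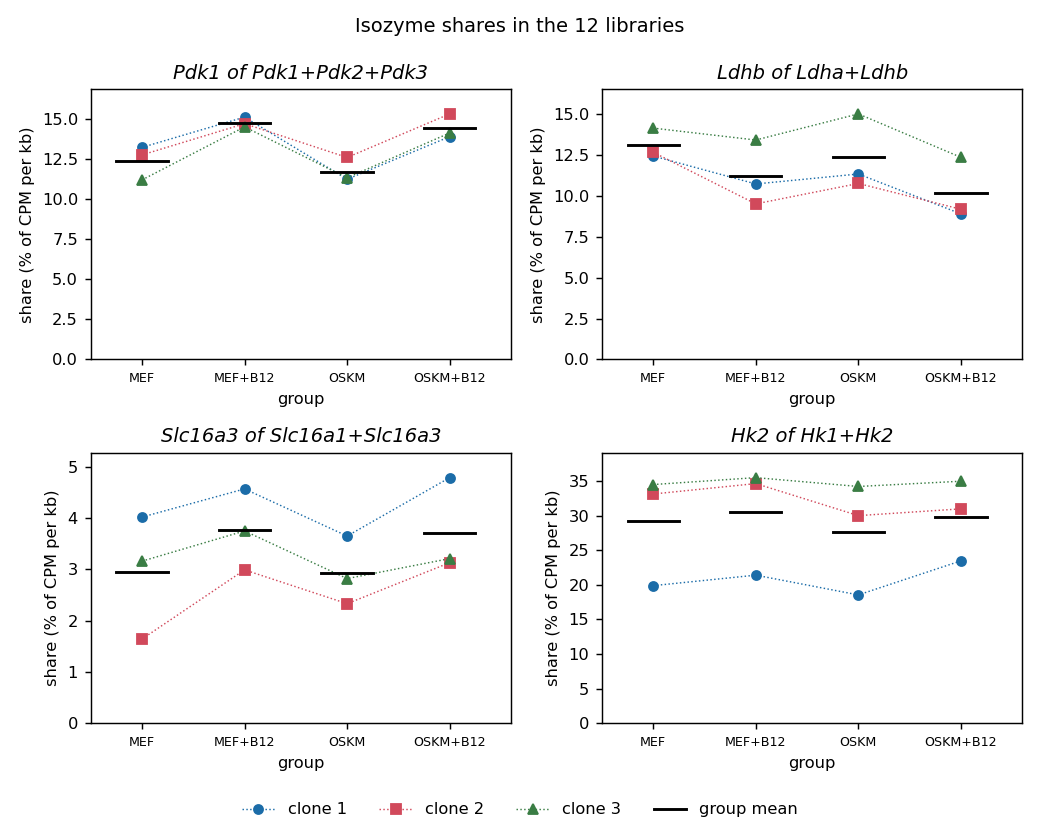
Shares of 4 members in the summed CPM per kilobase of the members of their gene family, in percent, for the 12 libraries. Points are single libraries marked by clone, dotted lines join libraries of one clone, and bars are means of n = 3. In every clone and state the Pdk1, Slc16a3 and Hk2 shares were higher and the Ldhb share was lower with B12.

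After 72 h of OSKM induction, 1 member was called. Averaged over B12, 0 of the 34 tested members rose and 1, Slc16a1, fell, against 9.73% of all genes tested, 4.46% higher and 5.26% lower. The median log2 difference of the members was -0.032, against -0.003 over all genes tested, and 11 of 34 were positive. None of the 16 enzyme genes was called, and they had a median log2 difference of -0.031.

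Slc16a1 lies at chromosome 3, 104638668 to 104658462, on the plus strand. It was at 88.0, 103 and 86.2 CPM in MEF (clones 1 to 3 in this order) and at 82.2, 98.0 and 87.5 CPM in MEF+B12. It was at 57.3, 74.1 and 88.4 CPM in OSKM against 67.9, 75.0 and 86.0 CPM in OSKM+B12. The induced libraries of clones 1 and 2 lay below all uninduced libraries, and those of clone 3 lay among them. The log2 fold change was -0.29 ± 0.07 (adjusted p = 0.0375).

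The call of Slc16a1 was lost without clone 1 (adjusted p = 0.301), without clone 2 (adjusted p = 0.444), without the OSKM library of clone 1 alone (adjusted p = 0.0724) and without the clone term (adjusted p = 0.29). Over all genes tested, 10 of 19102 were called without clone 1 and 3 of 19314 without clone 2. The count was 771 of 19499 without that library and 0 of 19174 without the clone term, against 1865 in the main fit. Without clone 3, whose pluripotency genes were lowest after induction, the log2 fold change was -0.44 (adjusted p = 0.000952). In that setting 5 of 34 members were called, against 3056 of 19231 genes tested. Slc16a1, Hif1a, Aldoa and Pgk1 were lower and Egln3 was higher. Endothelial markers moved with induction. Their summed level was 43.0 to 48.7 CPM where the cassette was off. Induced libraries of clones 1 and 2 held 126 to 146 CPM, while those of clone 3 held 49.7 and 54.9 CPM. In the fit to all 12 libraries, averaged over B12, 4 of the 12 fibroblast markers were called lower with OSKM. In that fit 5.26% of all genes tested were lower. The part of endothelial cells and fibroblasts in the differences of Slc16a1, Hif1a and Egln3 was not tested.

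The next smallest p belonged to genes of oxygen sensing and to Aldoa, and they missed the threshold. Hif1a had a log2 difference of -0.17 ± 0.05 (adjusted p = 0.0571), Aldoa had -0.12 ± 0.04 (adjusted p = 0.0678), Egln3 had 0.83 ± 0.26 (adjusted p = 0.0684) and Ndrg1 had -0.11 ± 0.04 (adjusted p = 0.11). Hif1a was at 352, 459 and 450 CPM in MEF (clones 1 to 3 in this order) and at 330, 423 and 449 CPM in MEF+B12. It was at 324, 357 and 462 CPM in OSKM against 284, 346 and 427 CPM in OSKM+B12. Clone 1 was lowest in every group, and clones 1 and 2 were lower after induction in both B12 conditions.

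Egln3 was scarce, with 18 to 114 counts per library. It was at 0.866, 0.332 and 0.284 CPM in MEF (clones 1 to 3 in this order) and at 0.896, 0.310 and 0.647 CPM in MEF+B12. It was at 1.69, 1.12 and 0.475 CPM in OSKM against 1.46, 1.01 and 0.384 CPM in OSKM+B12. In clones 1 and 2 both induced libraries lay above both uninduced ones of the same clone, and in clone 3 they did not. DESeq2 called 4 of 34 members for OSKM averaged over B12, Slc16a1, Aldoa, Hif1a and Egln3, against 2465 of 19174 genes tested.

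Without B12, OSKM against MEF gave 0 of 34 members called by edgeR, against 0.073% of all genes tested. An unadjusted p under 0.05 was reached by 6 of 34 members and by 3641 of 19174 genes tested. DESeq2 called 1 member there, Slc16a1, against 487 of 19174 genes tested. With B12, OSKM against MEF gave 0 of 34 called by edgeR, against 0.104% of all genes tested. An unadjusted p under 0.05 was reached by 3 of 34 members and by 2854 of 19174 genes tested. DESeq2 called 0 members there, against 416 of 19174 genes tested. The smallest p without B12 were those of Slc16a1 (-0.35 ± 0.10, adjusted p = 0.166), Aldoc (0.34 ± 0.10, adjusted p = 0.168), Egln3 (1.15 ± 0.37, adjusted p = 0.174), Gpi1 (0.15 ± 0.06, adjusted p = 0.215) and Hk2 (-0.18 ± 0.08, adjusted p = 0.238). With B12 they were led by Aldoa (-0.17 ± 0.05, adjusted p = 0.197), Hif1a (-0.19 ± 0.07, adjusted p = 0.246) and the collagen hydroxylase P4ha1 (-0.12 ± 0.05, adjusted p = 0.297). Only Ldha among the 34 tested members was higher after induction in 6 of 6 pairs, against 7.29% of all genes tested, and only Aldoa was lower in 6 of 6, against 8.28%.

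An F test asked if the clones differed in their response to induction. It called 2.15% of all genes tested and 0 of 34 members by edgeR. An unadjusted p under 0.05 was reached by 4 of 34 members and by 2842 of 19174 genes tested. DESeq2 called 1 member, Slc16a1, against 597 of 19174 genes tested. The 4 members were Slc16a1 (adjusted p = 0.0631), the glucose carrier Slc2a3 (adjusted p = 0.126), Hif1a (adjusted p = 0.145) and Egln3 (adjusted p = 0.16). The log2 difference of Slc16a1 without B12 was -0.62 in clone 1, -0.48 in clone 2 and 0.04 in clone 3. That of Slc2a3 was -0.17, 0.47 and -0.16, so that clone 2 stood apart. The response to B12 did not differ between clones past the threshold in any gene, with 0% of all genes tested and 0 members by edgeR or DESeq2. By edgeR, 0 of 34 members had an unadjusted p under 0.05, against 227 of 19174 genes tested.

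The difference between the B12 response in induced and in uninduced cells called 0% of all genes tested and 0 of 34 members by edgeR or DESeq2. An unadjusted p under 0.05 was reached by 273 of 19174 genes tested. Aldoc, the aldolase of brain, was the only member with an unadjusted p under 0.05, with an interaction of -0.47 ± 0.15 on the log2 scale (adjusted p = 1). It was at 3.20, 3.32 and 3.28 CPM in MEF (clones 1 to 3 in this order), at 3.90, 5.20 and 4.47 CPM in MEF+B12, at 4.07, 4.49 and 3.87 CPM in OSKM and at 3.50, 4.58 and 4.32 CPM in OSKM+B12. The 3 MEF libraries were the lowest of all 12. In induced cells the ranges with and without B12 overlapped.

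Several members share sequence with processed pseudogenes, and read pairs that match both can be lost or moved between them. The share of 31-base words of a gene that occur in other genes was 54.7% for Pgk1, 37.1% for Pgam1, 34.7% for Pkm, 33.0% for Ldhb, 28.5% for Eno1 and 27.2% for Gapdh, and 0.251% for Pdk1 and 0% for Slc16a1. The levels of the first 6 genes are less certain for this reason, by an amount that was not measured. For Pgk1, 4 pseudogenes summed to 218 to 255 CPM without B12 and to 251 to 293 CPM with it. For Ldhb, a single pseudogene was at 3.71 to 5.72 CPM without and at 3.18 to 4.93 CPM with B12.

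Gapdh, the enzyme often used as a reference gene, was decided by 1 library. It was at 461 CPM in the OSKM library of clone 1 and at 322 to 367 CPM in the other 11. Its 127 pseudogenes in the annotation summed to 526 CPM in that library and to 296 to 336 CPM in the others. The same library also had the highest Gpi1, at 231 CPM against 175 to 210 CPM elsewhere, and the log2 difference of Slc16a3 from MEF of the same clone was -0.76, where clones 2 and 3 without B12 gave 0.04 and -0.13. Gapdh had a log2 difference with B12 of 0.13, 0.18 and 0.12 in MEF (clones 1 to 3 in this order) and of -0.42, 0.07 and 0.11 in OSKM. Averaged over state it was 0.03 ± 0.07 (adjusted p = 0.884) for B12 and 0.05 ± 0.07 (adjusted p = 0.644) for OSKM.

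**Figure D4:**
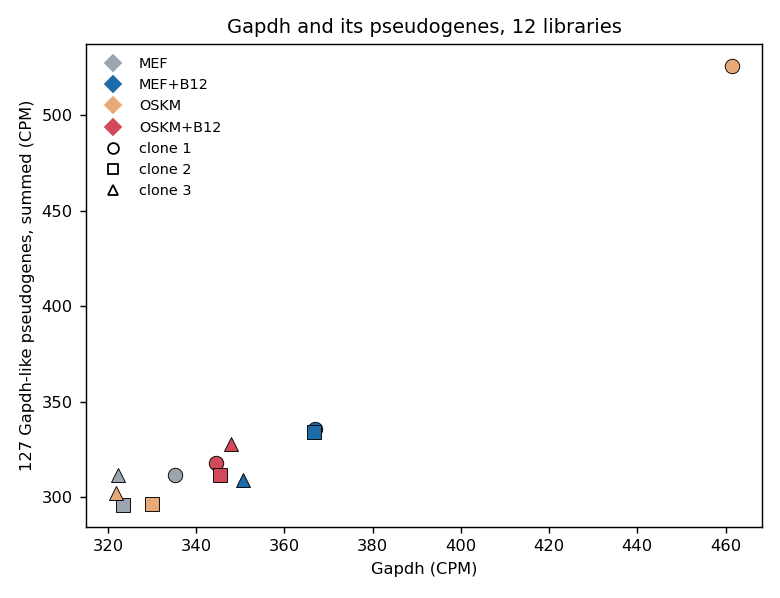
Level of Gapdh (x axis, CPM) against the summed level of its 127 pseudogenes (y axis, CPM) in the 12 libraries, coloured by group and marked by clone. The axes do not start at 0. The OSKM library of clone 1 lies at 461 and 526 CPM, away from the other 11, which lie at 322 to 367 and 296 to 336 CPM.

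The neighbouring pathways were read from 3 further lists. Of 8 genes of the pentose phosphate pathway, which branches from glycolysis at glucose 6-phosphate, 3 rose and 0 fell with B12 averaged over state, where 3.46% of all genes tested were higher and 0.381% lower, with a median log2 difference of 0.117 against -0.013 over all genes tested. Pgd, the second NADPH-yielding enzyme, had 0.30 ± 0.03 (adjusted p = 0.000359), Taldo1, transaldolase, had 0.26 ± 0.04 (adjusted p = 0.00172) and G6pdx, which opens the pathway, had 0.27 ± 0.04 (adjusted p = 0.00322). Pgd was at 111 to 134 CPM in MEF and 134 to 167 CPM in MEF+B12, and at 105 to 127 CPM in OSKM and 133 to 150 CPM in OSKM+B12. All 3 genes were higher with B12 in 6 of 6 pairs. Within MEF 3 of the 8 were called, against 1.38% of all genes tested, and within OSKM 2, Pgd and Taldo1, against 1.06%, while G6pdx in clone 1 differed by 0.01 on the log2 scale. In the same comparison averaged over state 10 of the 11 macrophage markers rose, and their part in the differences of Pgd, Taldo1 and G6pdx was not tested. With OSKM, 1 of the 8, H6pd, the glucose 6-phosphate dehydrogenase of the endoplasmic reticulum, fell by 0.21 on the log2 scale (adjusted p = 0.0337).

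Of 46 other genes of sugar phosphate and pyruvate metabolism, 40 were tested. With B12, 2 of the 40 rose and 0 fell, where 3.46% of all genes tested were higher and 0.381% lower. Hk3, a hexokinase known from leukocytes, had 0.89 ± 0.08 (adjusted p = 0.000294) and Slc16a6 (MCT7) had 0.66 ± 0.07 (adjusted p = 0.000658). Hk3 was at 18.1 to 29.0 CPM in MEF and 35.4 to 50.2 CPM in MEF+B12, and it moved with the macrophage markers, whose part was not tested. With OSKM, 2 of the 40 rose and 4 fell, where 4.46% of all genes tested were higher and 5.26% lower. Those called among the 40 include Pdk4 (-0.40 ± 0.08, adjusted p = 0.0207), Slc2a6 (0.40 ± 0.08, adjusted p = 0.0214), Pcx, pyruvate carboxylase (-0.23 ± 0.05, adjusted p = 0.0219), and the muscle enolase Eno3 (0.36 ± 0.08, adjusted p = 0.027).

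Of 42 other genes that respond to low oxygen, 1, Tpd52, rose with B12 (0.34 ± 0.05, adjusted p = 0.00431) and 0 fell. Over all genes tested, 3.46% were higher and 0.381% lower with B12. With OSKM, 4 of the 42 rose and 7 fell, where 4.46% of all genes tested were higher and 5.26% lower. The members of smallest p with OSKM were Kdm3a, a histone demethylase (0.21 ± 0.04, adjusted p = 0.0207), Angptl4, a lipase inhibitor (-0.33 ± 0.06, adjusted p = 0.0207), Mxi1, a Myc antagonist (0.33 ± 0.07, adjusted p = 0.0256), the peptide hormone Adm (-0.36 ± 0.08, adjusted p = 0.0269) and Ak4, a mitochondrial adenylate kinase (0.37 ± 0.09, adjusted p = 0.031). Known targets of HIF-1 thus stood on both sides of 0. The median log2 difference of the 42 was -0.023 with OSKM and -0.033 with B12.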

How the data were processed

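Poly(A) RNA of 12 libraries was sequenced as strand-specific read pairs. The authors aligned them to mm10 (GRCm38) with STAR 2.5.2, used the reverse-stranded setting of featureCounts to count pairs, and added technical replicates. What they deposited are raw counts, and the treatment of multiply mapped pairs is not stated beyond this. Symbols and coordinates (1-based) came from GENCODE M21 on GRCm38, which left 93 identifiers unmatched. Counts were tested here with the quasi-likelihood F test of edgeR 4.0.16 (legacy fit, R 4.3.3) after TMM scaling and filterByExpr by group, with clone and group as terms over all 12 libraries and Benjamini-Hochberg adjustment over 19174 genes, at a threshold of 0.05. The response by clone used clone by state or clone by B12 terms. CPM used TMM-scaled totals, and log2 differences within a clone a prior count of 2. Clone entered as a block, since all groups hold 1 library of each embryo. Deviations from group means correlated at 0.270 to 0.687 in 18 pairs of libraries of one clone and at most at 0.170 in 48 pairs of different clones. Library totals were 56971244 to 79236795. Counting errors were not set against the spread between clones, and counts carry no molecular identifiers. Alternatives were DESeq2 1.42.0, DESeq2 size factors, library totals, no filter, a minimum of 10 counts in every library, a GC and length offset, only the compared groups, no clone block, leaving out each clone and leaving out the OSKM library of clone 1, and, chosen after seeing the data, the edgeR 4 form of the test. The fitting steps were tested on simulated data. The members and gene lists were chosen with earlier results of these data known. Full values are given for members past the threshold in a comparison and for up to 5 of smallest p in each, for the genes of the other lists past the threshold, up to 5 per list and comparison, and the rest by counts and ranges. Other genes or members given with values were chosen after their values were seen. One listed symbol, Ero1a, was not matched in the annotation and was left out. Values of some genes of the neighbouring lists are not reported here.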

Additional observations from a re-analysis of the deposited data

Results flagged for a closer look

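Aldoc was the one member whose difference between OSKM and MEF had opposite signs in every clone in the 2 B12 conditions. It was positive without B12 (0.34, 0.43 and 0.24 on the log2 scale for clones 1, 2 and 3) and negative with B12 (-0.16, -0.18 and -0.05). The interaction in edgeR was -0.47 on the log2 scale (unadjusted p = 0.00854, adjusted p = 1), so that the difference did not pass the threshold.

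Among the genes of the neighbouring lists, the response to induction differed between clones by the F test of edgeR for Adm (adjusted p = 0.0107), Angptl4 (adjusted p = 0.0214) and Vegfa (adjusted p = 0.0404). Without B12, the log2 difference between OSKM and MEF of Adm was -0.21, -0.70 and -0.11 in clones 1, 2 and 3, that of Angptl4 was -0.44, -0.53 and -0.11, and that of Vegfa was 0.76, 0.63 and -0.13. In these 3 genes clone 3, whose summed pluripotency genes after induction were 4.87 and 5.51 CPM against 32.3 to 37.2 CPM in the other clones, had the smallest difference in size.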

How the results depend on the processing

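The direction of every member past the threshold was kept under all alternatives run, and DESeq2 size factors, the GC and length offset with the replicate block and the edgeR 4 form of the test kept every count of called members within 1.5 times. DESeq2 called 1, 4, 1, 3, 7 and 1 members for OSKM without B12, OSKM averaged, B12 in OSKM, B12 in MEF, B12 averaged and the OSKM response by clone, in place of 0, 1, 0, 0, 4 and 0. Of the 19174 genes tested, DESeq2 called 487, 2465, 388, 469, 934 and 597 in the same order. Without a filter the counts were 2 for OSKM without B12, 3 for OSKM averaged, 2 for B12 in MEF and 3 for the OSKM response by clone, and with library totals 3 for B12 in MEF and 7 for B12 averaged. Over all genes the counts without a filter were 681, 2552, 425 and 1257 of 33090. With library totals they were 409 and 881 of 19174. Without the replicate block 0 members were called for OSKM averaged and 0 for B12 averaged, where 0 and 90 genes of all tested were called, so that the calls need the pairing by clone. With only the compared groups and the replicate block, B12 in MEF gave 7, where 845 of 18446 genes tested were called. Leaving out a clone or the OSKM library of clone 1 gave 0 to 2 for OSKM without B12, 0 to 1 for OSKM with B12, 0 to 5 for OSKM averaged, 0 to 2 for B12 in MEF, 0 to 5 for B12 averaged and 0 to 2 for the OSKM response by clone. Over all genes tested, these settings gave 3 to 3056 calls for OSKM averaged and 34 to 785 for B12 averaged. With mean coding transcript length the share differences were 0.077 percentage points for Aldoc with OSKM, -1.25 for Ldhb with B12 and 2.02 for Slc16a3 with B12. Of the single members under an alternative, 386 kept their side of the threshold, 34 passed it only there and 18 no longer passed it. The cause was not tested. Depth limits Egln3, Car9 and Ankrd37, and n = 3 clones limits every test.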
